A study of Mus musculus with 6 samples.

Results

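The collagen genes of the mouse were followed in CT26 tumors treated with vehicle or with TP-18. A gene was taken as a member when its symbol was Col, a number, the letter a and a further number, and when the count table marked it as protein-coding. This rule uses no measured value and found 42 of the 23122 genes in the table, of which 17574 are protein-coding. CT26 is a colorectal carcinoma line of BALB/c mice, and each tumor came from 500000 cells placed under the skin of a female BALB/c mouse 6 to 8 weeks old. Treatment began at tumor volumes of 100 to 200 mm3 and lasted 3 weeks, with vehicle in 3 tumors and TP-18 at 50 mg/kg by mouth once a day in the other 3. Per the series title, TP-18 blocks EP2 and EP4, a pair of prostaglandin E2 receptors. Bulk RNA of whole tumors was sequenced, so carcinoma cells and host stroma are read together, and fewer cells of a type cannot be told apart from less RNA per cell.

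Collagens are secreted or membrane-bound proteins whose chains wind into a helix, and each gene encodes 1 chain. Fibrillar collagens such as types I, III and V form the fibers of connective tissue and are made mainly by fibroblasts and related cells. Type IV collagen forms the sheet of the basement membrane beneath endothelium and epithelium, type VI makes beaded filaments, and the remaining types coat fibrils, anchor epithelia or span the cell membrane. In tumors, fibrillar collagen is a main part of the stroma.

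The 6 libraries held 34813482 to 36489081 counts, and collagen genes took 0.367% to 0.722% of them. Of markers for the labelled tissue, Krt20, a keratin of gut epithelium, stood at 262 to 342 CPM (counts scaled to the size of the library) in vehicle and 184 to 225 CPM in TP-18 tumors, a fall that passed the test (adjusted p = 0.0204 by edgeR). Cdh1, E-cadherin, did not pass (adjusted p = 0.0647) but was higher in every TP-18 tumor, at 3.52 to 5.00 CPM against 1.05 to 2.41 CPM in vehicle. Krt18, another keratin, did not pass either (adjusted p = 0.0649) but was lower in every TP-18 tumor, with a log2 change of -0.86. Krt8 and Cdx2, too scarce to be tested, were likewise lower in every TP-18 tumor. They had 41 and 37 reads in vehicle and 19 and 16 reads in TP-18. The groups of Krt19 overlapped. The 8 markers of this list summed to 282.0 to 352.5 CPM in vehicle and 194.0 to 237.1 CPM in TP-18 tumors, most of it Krt20. Epcam, an epithelial adhesion molecule, and Vil1, a brush border protein, were both at 0.615 CPM or below in every library, Epcam with 2 reads in vehicle and 39 in TP-18. Markers of leukocytes, summed over 8 genes, ran from 315 to 419 CPM in vehicle and from 646 to 716 CPM in TP-18 tumors. All 7 tested had a positive change, and 6 passed the test. Markers of skeletal muscle, summed over 10 genes, ran from 10.1 to 32.6 CPM and from 63.6 to 125 CPM. All 10 had a positive change, 9 had groups that did not overlap, and 6 passed the test. Of all tested genes, 7.09% passed as higher. The part of muscle or leukocytes in the collagen values was not tested.

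Per unit of gene length, Col1a2, which encodes the alpha 2 chain of type I collagen, was the most abundant collagen transcript, with a mean of 296.9 FPKM (fragments scaled to gene length and library total, the authors' values) over the 6 tumors. Col3a1, the single chain of type III collagen, followed at 150.5 FPKM and Col1a1, the alpha 1 chain of type I, at 101 FPKM. The next were Col4a1 at 68.7 FPKM, Col8a1 at 51.3 FPKM and Col4a2 at 47.6 FPKM. Of the 42 genes, 12 had a mean of at least 10 FPKM, 18 of at least 1 FPKM, and 14 were below 0.1 FPKM. Col1a2, Col3a1 and Col1a1 together made up between 49.98% and 74.5% of the summed collagen FPKM of a tumor.

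**Figure D1:**
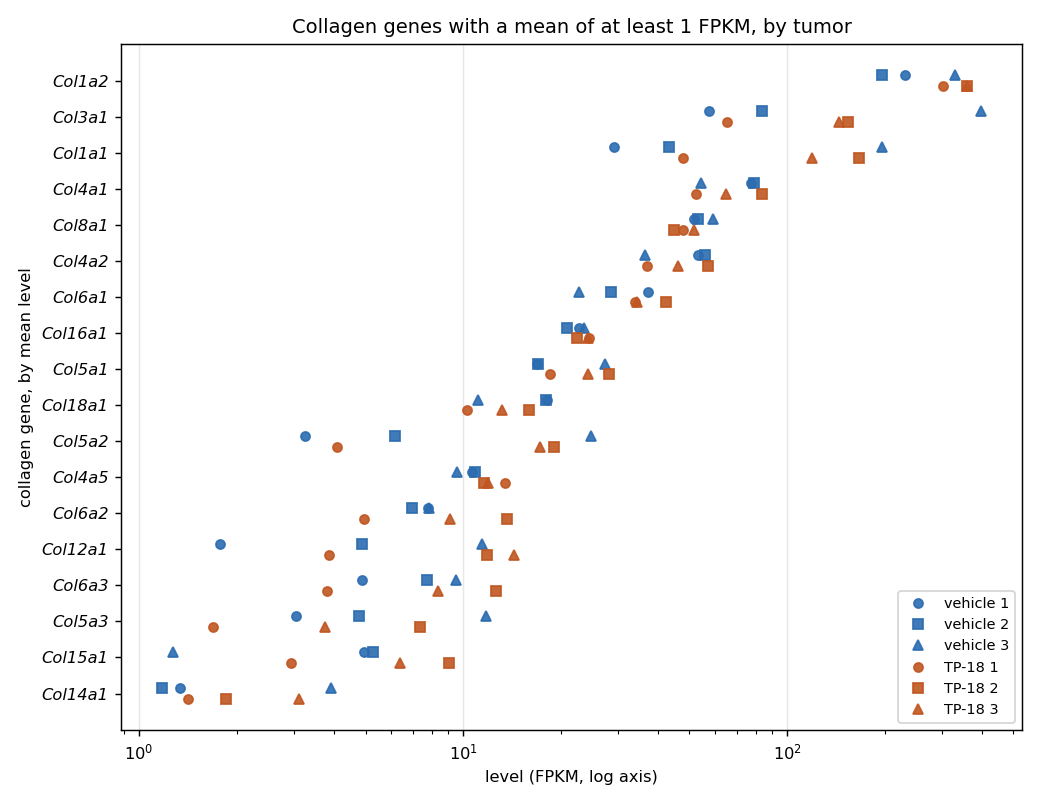
Level of the 18 collagen genes with a mean of at least 1 FPKM (rows, ordered by mean) in each of the 6 tumors, in FPKM on a log axis. Blue symbols are vehicle and orange symbols TP-18 tumors. Col3a1, Col1a1, Col5a2 and Col12a1 spread widely within each group, while Col16a1, Col4a5 and Col8a1 cluster tightly.

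Summed over the 42 genes, collagen stood at 635, 647 and 1243 FPKM in the 3 vehicle tumors and at 680, 1066 and 962 FPKM in the 3 TP-18 tumors. The groups overlapped, and vehicle 3 was the highest of all. Fibrillar genes supplied 53.7% and 54.5% of that sum in vehicle 1 and 2, 79.7% in vehicle 3, and 64.9% to 69.6% in the TP-18 tumors. Vehicle 3 thus had the highest fibrillar share of the 6, and the TP-18 shares lay between those of vehicle 2 and vehicle 3.

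Collagen transcripts were then compared between treated and vehicle tumors. Of the 42 genes, 29 had enough counts to be tested, and only Col7a1, the anchoring fibril collagen, passed an adjusted p of 0.05 by edgeR's quasi-likelihood test, with a higher level in TP-18 tumors. That is 3.45% of the tested members, where 12.4% of all 14189 tested genes were called, 7.09% higher and 5.26% lower. At an unadjusted p under 0.05 stood 3 members, Col7a1, Col8a1 and Col28a1, where 29.9% of all tested genes did. The same 3 genes had groups that did not overlap, 10.3% of the tested members against 35.8% of all tested genes. The median log2 change of the tested members was 0.06, with 18 positive and 11 negative changes, and that of all tested genes was -0.01. With 1 vehicle library left out, 32 collagen genes passed the filter. Of these 2 were called when it was vehicle 1 (Col8a1 and Col11a1, 15.3% of all genes), 0 when it was vehicle 2 (3.58%) and 3 when it was vehicle 3 (Col1a2, Col28a1 and Col10a1, 9.38%). Omitting TP-18 1 gave 2 of 31 (Col7a1 and Col11a1, 5.14% of all genes), omitting TP-18 2 gave 1 of 30 (Col8a2, 5.0%) and omitting TP-18 3 gave 0 of 29 (3.46%). Col11a1 and Col8a2, with at most 3 reads in any vehicle library, passed the filter only in such smaller fits, through the TP-18 libraries where they are high. Limma called 0 by voom (12.3% of all genes), 0 on log2(FPKM + 1) (10.4%), 0 on log2(FPKM + 0.1) (10.6%) and 0 on log2(FPKM + 1) with no filter (3.66%). With replicate number as a block 0 were called (5.48%). In the fit with group alone, 2 stood at an adjusted p under 0.10 (21.3% of all genes). Without vehicle 3 the members' median was 0.47, without TP-18 1 it was 0.35 and without TP-18 2 it was -0.10.

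The tested collagen genes varied strongly within groups. The standard deviation (SD) of log2 CPM among tumors of a group, pooled over both groups, had a median of 0.74 over the 29 members and of 0.17 over all tested genes. Of the 29 genes, 25 lay above that overall median and 18 were among the 10% most variable tested genes. For 19 of the 29 genes the 95% interval of the change reached a 2-fold difference in at least 1 direction. A 2-fold change was within the measured error for these, except for Col7a1, whose interval lay wholly above it (log2 1.06 to 3.54). For the other 10 the interval stayed inside a 2-fold change both ways.

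**Figure D2:**
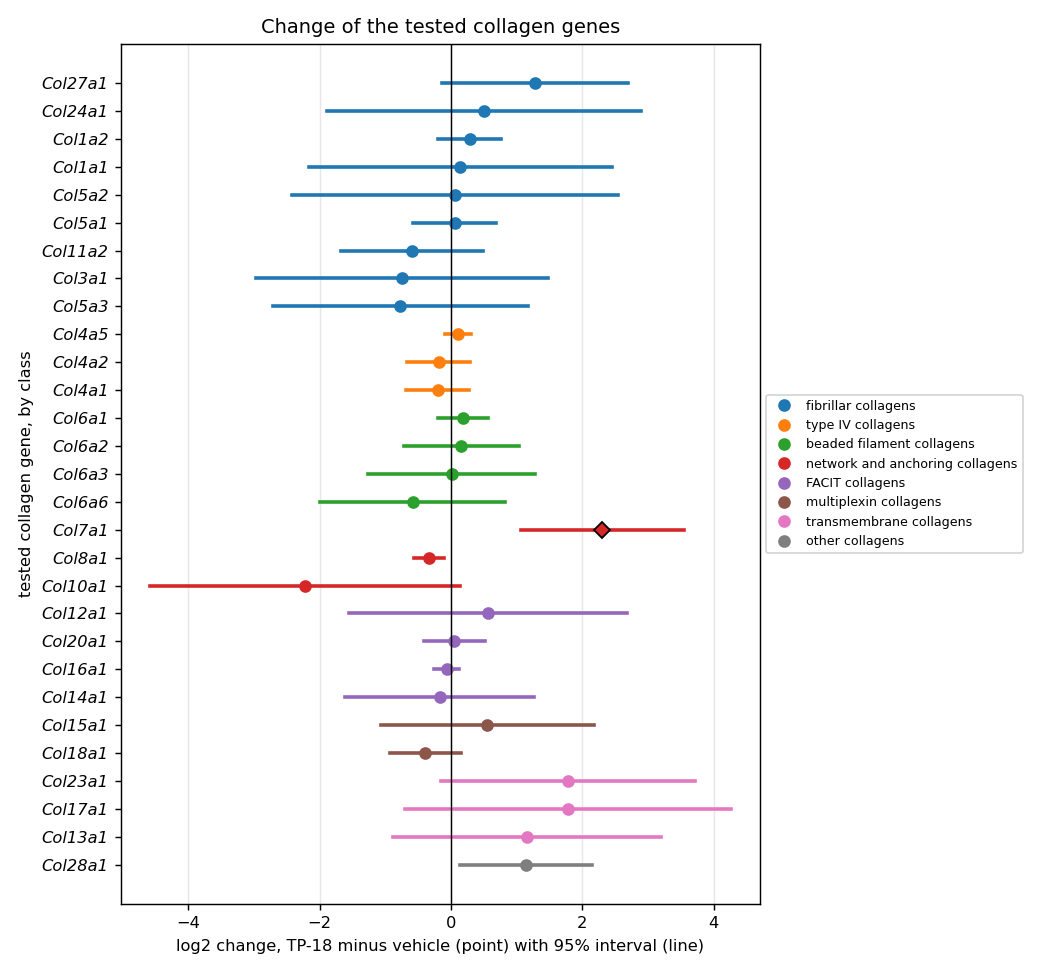
Log2 change of the 29 tested collagen genes, TP-18 minus vehicle (points), with the 95% interval from edgeR's fit (lines), grouped by collagen class (colors). The diamond marks Col7a1, with an interval from 1.06 to 3.54. Intervals are narrow for Col4a5, Col16a1 and Col8a1 and wide for Col1a1, Col3a1 and Col5a2.

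Among fibrillar collagens, 9 of 11 genes were tested and 0 passed, with a median log2 change of 0.06. Col1a1 (Entrez 12842, chromosome 11, 94936224 to 94953042 in GRCm38) measured 174, 274 and 1270 CPM in vehicle 1 to 3 and 269.9, 956 and 665 CPM in TP-18 1 to 3. Col3a1 (Entrez 12825, chromosome 1, 45311538 to 45349706) measured 319.6, 497 and 2415 CPM against 345, 829 and 752 CPM. Both genes were low in vehicle 1, vehicle 2 and TP-18 1 and high in the other 3 tumors, highest in vehicle 3, so the range of the TP-18 group lay within that of vehicle. The log2 change was 0.14 ± 0.91 (SE, 3 tumors per group, adjusted p = 0.939 by edgeR) for Col1a1 and -0.75 ± 0.87 (adjusted p = 0.616) for Col3a1. For Col3a1 the change was 0.67 without vehicle 3 (adjusted p = 0.363) and for Col1a1 it was 1.51 without it, while without vehicle 1, vehicle 2 or TP-18 2 that of Col1a1 was negative.

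Col5a2, a chain of type V collagen, which takes part in the start of fibril assembly, had the largest within-group SD of its class (1.41 on the log2 scale, with Col24a1 next at 1.39), at 21.5, 43.4 and 179 CPM in vehicle and 25.7, 122 and 107 CPM in TP-18 tumors. Col5a1, its partner chain, varied less, with 144, 155 and 254 CPM against 151, 232 and 193 CPM. Col5a3 measured 18.6, 31.1 and 78.5 CPM in vehicle and 9.84, 43.7 and 21.4 CPM in TP-18 tumors. All 3 were highest in vehicle 3. Across the class, vehicle 3 was the highest vehicle tumor for 9 of 9 tested genes and the highest of all 6 tumors for 7, where it was the highest for 20.8% of all tested genes.

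Col1a2 (Entrez 12843, chromosome 6, 4505618 to 4541543) behaved differently from its partner chain. Its levels were 1205, 1096 and 1880 CPM in vehicle and 1514, 1817 and 1756 CPM in TP-18 tumors, a 1.72-fold range over the 6 tumors against 7.32-fold for Col1a1. The log2 change was 0.28 ± 0.20 (SE), with an adjusted p of 0.392 and a 95% interval from -0.19 to 0.76. Without vehicle 3, the tumor with the highest Col1a2, it was 0.57 with an adjusted p of 0.0299, in a fit that called 3 of 32 tested collagen genes (Col1a2, Col28a1 and Col10a1) and 9.38% of all genes.

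The other tested fibrillar collagens were scarce. Col27a1, a cartilage-type fibrillar chain, measured 0.456, 0.582 and 1.34 CPM in vehicle and 0.699, 2.96 and 2.13 CPM in TP-18 tumors, and Col24a1 0.342, 0.490 and 2.09 CPM against 0.215, 2.79 and 1.13 CPM. Col11a2, a chain of the fibrils of cartilage, ran from 0.598 to 1.91 CPM in vehicle and from 0.591 to 0.985 CPM in TP-18 tumors. Their adjusted p-values were 0.204, 0.775 and 0.438. Defining cartilage and bone markers were near 0, with a sum over 7 genes of at most 0.219 CPM in any tumor.

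Markers of fibroblasts, fixed as 12 genes of which all were detected, summed to 727, 708 and 1158 CPM in vehicle and 669, 878 and 808 CPM in TP-18 tumors, and 0 of 12 passed the test. Vehicle 3 was the highest vehicle tumor for 11 of the 12, and vehicle 1 was the lowest of all 6 tumors for 9 of the 12. Postn, periostin, a matrix protein of activated fibroblasts, stood at 12.1, 28.4 and 91.0 CPM in vehicle and 22.7, 101 and 116 CPM in TP-18 tumors. Postn was low in the same 3 tumors as Col1a1, Col3a1 and Col5a2, but not every marker of the list was. Pdgfrb was lowest in vehicle 3, at 82.5, 73.2 and 43.0 CPM in vehicle and 80.6, 83.2 and 95.3 CPM in TP-18 tumors. Pdgfra varied less, at 45.0, 51.1 and 57.7 CPM against 54.1, 64.0 and 56.7 CPM. Pi16, a marker of resting fibroblasts, stood at 1.91, 4.38 and 31.1 CPM against 3.28, 4.32 and 9.59 CPM, highest in vehicle 3. Dcn, the fibril-binding proteoglycan decorin, was the most abundant marker and the largest single part of each sum. It was 515, 457 and 711 CPM in vehicle and 389, 382 and 337 CPM in TP-18 tumors, with no overlap (adjusted p = 0.0507 by edgeR). The part of fibroblast content in the collagen values was not tested.

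**Figure D3:**
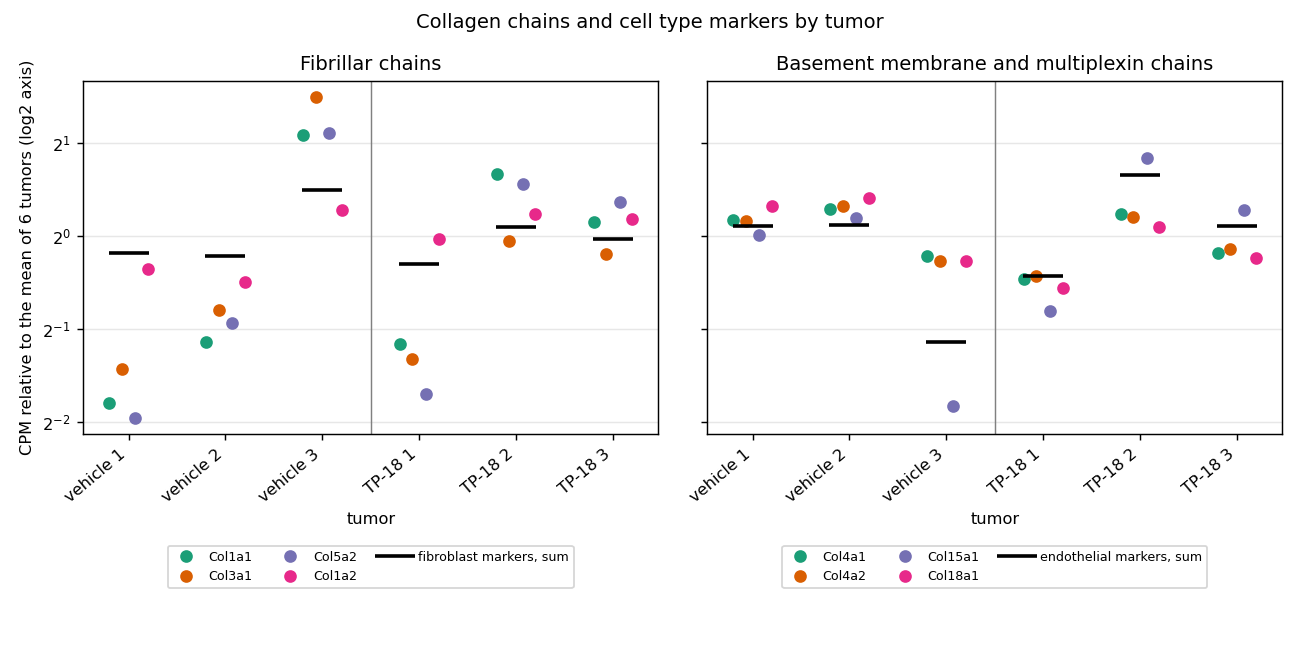
CPM of single collagen genes (points) and summed CPM of marker genes (black bars) in each tumor, divided by the mean of the 6 tumors, on a log2 axis. Left, fibrillar chains with fibroblast markers: Col1a1, Col3a1 and Col5a2 are low in vehicle 1, vehicle 2 and TP-18 1, while Col1a2 varies little. Right, Col4a1, Col4a2, Col15a1 and Col18a1 with endothelial markers: Col15a1 and the markers are lowest in vehicle 3.

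Ratios between chains were taken per length, as FPKM over FPKM within a tumor, for 10 pairs chosen after the values had been seen. In type I collagen the alpha 1 chain outnumbers the alpha 2 chain. The transcript ratio of Col1a1 to Col1a2 was 0.127, 0.220 and 0.595 in vehicle and 0.157, 0.463 and 0.333 in TP-18 tumors. It was under 1 in all 6 tumors and its groups overlapped. The ratio of Col3a1 to Col1a1 was 1.96, 1.93 and 2.03 in vehicle and 1.36, 0.924 and 1.20 in TP-18 tumors. Here the vehicle tumors lay close together although Col1a1 itself ran from 29.3 to 197 FPKM among them, and all 3 TP-18 tumors lay below them. The difference in log2 ratio was -0.78, from 0.98 ± 0.04 (SD, n = 3) to 0.20 ± 0.29. The exact two-sided permutation p was 0.1, the smallest that 3 against 3 tumors can give, and 0.667 when adjusted over the 10 pairs. No other of the 10 ratios separated the groups.

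**Figure D4:**
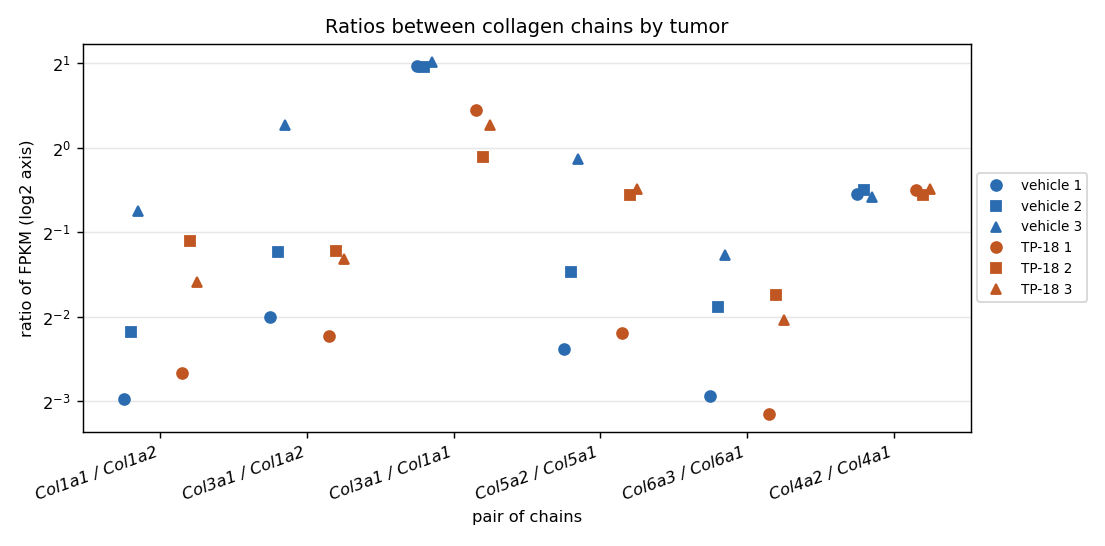
Ratio of FPKM between 2 collagen chains in each tumor, on a log2 axis, for 6 pairs. Blue symbols are vehicle and orange symbols TP-18 tumors. The ratio of Col3a1 to Col1a1 lies between 1.93 and 2.03 in vehicle and between 0.924 and 1.36 in TP-18 tumors, and that of Col4a2 to Col4a1 stays between 0.668 and 0.715 in all 6.

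Type IV collagen had 5 genes in the table, of which 3 were tested and 0 passed (median log2 change -0.19). Col4a1 and Col4a2, the ubiquitous chains of the basement membrane, lie head to head on chromosome 8, and of the 33 collagen genes with a window in the RefSeq promoter table this was the only pair whose windows overlapped. The windows below run from 250 bases before to 50 bases after the start site in GRCm38.p6, each read 5′ to 3′ on its own gene's strand. They are shown because these neighbours shared 1 pattern across tumors, and capitals mark the 78 bases (chr8:11312777-11312854) that both windows hold, once on each strand.
Col4a1, chr8:11312777-11313076, minus strand: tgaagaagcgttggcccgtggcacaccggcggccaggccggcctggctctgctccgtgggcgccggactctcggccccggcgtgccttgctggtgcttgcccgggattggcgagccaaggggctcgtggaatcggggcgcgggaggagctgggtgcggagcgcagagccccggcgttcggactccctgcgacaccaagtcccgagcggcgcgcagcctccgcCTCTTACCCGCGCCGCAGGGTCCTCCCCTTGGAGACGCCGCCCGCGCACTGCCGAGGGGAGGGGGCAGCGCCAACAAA
Col4a2, chr8:11312555-11312854, plus strand: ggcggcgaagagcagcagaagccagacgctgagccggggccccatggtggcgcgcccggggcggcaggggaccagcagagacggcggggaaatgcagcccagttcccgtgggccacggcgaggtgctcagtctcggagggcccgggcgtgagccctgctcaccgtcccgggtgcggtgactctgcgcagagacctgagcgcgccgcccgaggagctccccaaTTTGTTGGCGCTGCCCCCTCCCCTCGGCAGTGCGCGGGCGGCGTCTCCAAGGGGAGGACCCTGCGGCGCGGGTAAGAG
Both windows are rich in G and C, at 74.0% and 73.7%. A search on both strands for GGGCGG, the GC box, found 1 match in the Col4a1 window and 3 in the Col4a2 window, of which 1 lies in the shared bases, and 35.7% of all 32851 windows hold this motif. CCAAT was matched once in each window (37.4% of all windows) and TATAAA in neither (13.6% of all windows).

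Col4a1 (Entrez 12826, chromosome 8, 11198423 to 11312889) measured 513, 558 and 392 CPM in vehicle and 331, 537 and 400.0 CPM in TP-18 tumors. Col4a2 (Entrez 12827, chromosome 8, 11312805 to 11449287) measured 343, 384 and 255 CPM against 228, 355 and 279 CPM. Both were highest in vehicle 2 and lowest in TP-18 1, as was Col18a1 on chromosome 10, and their groups overlapped. The part of the shared start region in the pattern was not tested. The ratio of Col4a2 to Col4a1 was 0.686, 0.705 and 0.668 in vehicle and 0.706, 0.677 and 0.715 in TP-18 tumors, a narrow range for transcripts that each varied 1.68-fold. The log2 changes were -0.21 ± 0.20 (SE, adjusted p = 0.535) and -0.19 ± 0.20 (adjusted p = 0.571). The annotated genes overlap by 85 bases at their 5′ ends. The start sites used for the windows lie 21 bases apart, as that of Col4a1 (11312826) lies inside the annotated gene end. The strand setting of the counting is not given in the sources used here.

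Col4a5 on the X chromosome, a chain best known from the kidney basement membrane, was steady at 69.8, 76.1 and 68.5 CPM in vehicle and 84.4, 73.8 and 73.1 CPM in TP-18 tumors. Its change was 0.11 ± 0.09 (SE) with a 95% interval from -0.09 to 0.31. Col4a3 and Col4a4, a further head-to-head pair and likewise known from the kidney, were near the limit of detection, with 4 reads each in the 3 vehicle libraries together and 1 and 4 reads in TP-18.

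Endothelial markers, 10 genes with 0 called, summed to 190, 191 and 79.8 CPM in vehicle and 131, 277 and 190 CPM in TP-18 tumors, and all 10 were lowest in vehicle 3. Pecam1, the endothelial adhesion molecule CD31, stood at 51.5, 58.7 and 29.2 CPM against 45.9, 84.6 and 58.8 CPM. Col15a1, a multiplexin of vessel and muscle basement membranes, was 26.3, 29.9 and 7.37 CPM in vehicle and 14.9, 46.6 and 31.8 CPM in TP-18 tumors. Like the markers it was lowest in vehicle 3 and highest in TP-18 2. Col18a1, the other multiplexin and the source of endostatin, measured 131, 139 and 87.4 CPM against 71.0, 112 and 89.0 CPM. Their log2 changes were 0.55 ± 0.64 (SE, adjusted p = 0.614) and -0.39 ± 0.23 (adjusted p = 0.293). The part of endothelial content in these values was not tested.

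Type VI collagen, the beaded filament collagen around cells, had 6 genes, of which 4 were tested and 0 passed (median log2 change 0.08). Col6a1 measured 148, 121 and 99.0 CPM in vehicle and 128, 163 and 128 CPM in TP-18 tumors. Col6a2 measured 46.9, 44.7 and 51.3 CPM against 28.4, 79.3 and 51.4 CPM. Col6a3, the largest chain, measured 53.0, 89.9 and 112 CPM against 39.4, 132 and 85.0 CPM. Col6a2 and Col6a3 shared their extremes, lowest in TP-18 1 and highest in TP-18 2, while Col6a1 was lowest in vehicle 3. The ratio of Col6a3 to Col6a1 ran from 0.113 to 0.415 over the 6 tumors, with overlapping groups. Col6a6 was scarce, at 0.228 to 0.781 CPM in vehicle and 0.161 to 0.513 CPM in TP-18 tumors.

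Network and anchoring collagens had 4 genes, of which 3 were tested and 1 passed (median log2 change -0.33). The gene that rose was Col7a1 (Entrez 12836, chromosome 9, 108953586 to 108984875), whose protein ties the epidermal basement membrane to the dermis. Its levels were 0.769, 0.367 and 0.781 CPM in vehicle and 1.24, 4.00 and 4.28 CPM in TP-18 tumors, on 64 and 359 reads per group. Each TP-18 tumor was above every vehicle tumor, with TP-18 1 close to them. The log2 change was 2.30 ± 0.54 (SE), 4.94-fold, with an adjusted p of 0.0321 by edgeR. The call was lost without vehicle 1 (adjusted p = 0.0512), vehicle 2 (0.109), vehicle 3 (0.0553), TP-18 2 (0.0892) or TP-18 3 (0.110), and it held without TP-18 1 (0.0185). DESeq2 gave 0.00025, limma-voom 0.0788 and limma on log2(FPKM + 1) 0.0969.

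Keratinocyte markers summed over 8 genes to 1.68, 3.40 and 2.34 CPM in vehicle and 10.9, 1.61 and 42.1 CPM in TP-18 tumors. In TP-18 2, where Col7a1 stood at 4.00 CPM, 6 of the 8 markers were at 0, among them the basal keratins Krt5 and Krt14, and Krt10 and Trp63 stood at 1.48 and 0.137 CPM. Col17a1, the hemidesmosome collagen of basal keratinocytes, measured 0.285, 0.122 and 0.343 CPM in vehicle and 0.403, 0.0821 and 2.10 CPM in TP-18 tumors. Its single high value fell in TP-18 3, the tumor with the most keratinocyte marker reads, and its lowest in TP-18 2. The log2 change of Col17a1 was 1.78 ± 1.05 (SE, adjusted p = 0.303) and -0.04 without TP-18 3. The part of skin in the Col7a1 and Col17a1 values was not tested.

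Col8a1 (Entrez 12837, chromosome 16, 57624256 to 57754737), a short-chain network collagen of vessel walls and other matrices, measured 264, 289.8 and 329 CPM in vehicle and 232, 221 and 247 CPM in TP-18 tumors. Every TP-18 tumor lay below every vehicle tumor, and the log2 change of -0.33 ± 0.10 (SE) had an adjusted p of 0.0620, just outside the threshold. It passed with DESeq2 (0.0198), with no filter on low counts (0.0384) and without vehicle 1 (0.0303). Col8a2, its partner chain, was too scarce to be tested, at 2, 1 and 3 reads in vehicle and 15, 10 and 56 reads in TP-18 tumors. The read ratio was 13.2 (95% exact interval from 5.80 to 37.0, counting error only), and the groups did not overlap. Col10a1, the collagen of growth plate cartilage, ranged 25.5-fold within the vehicle group alone, at 3.19, 1.22 and 0.125 CPM, and stood at 0.376, 0.438 and 0.154 CPM in TP-18 tumors (adjusted p = 0.187, 0.0307 without vehicle 3).

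**Figure D5:**
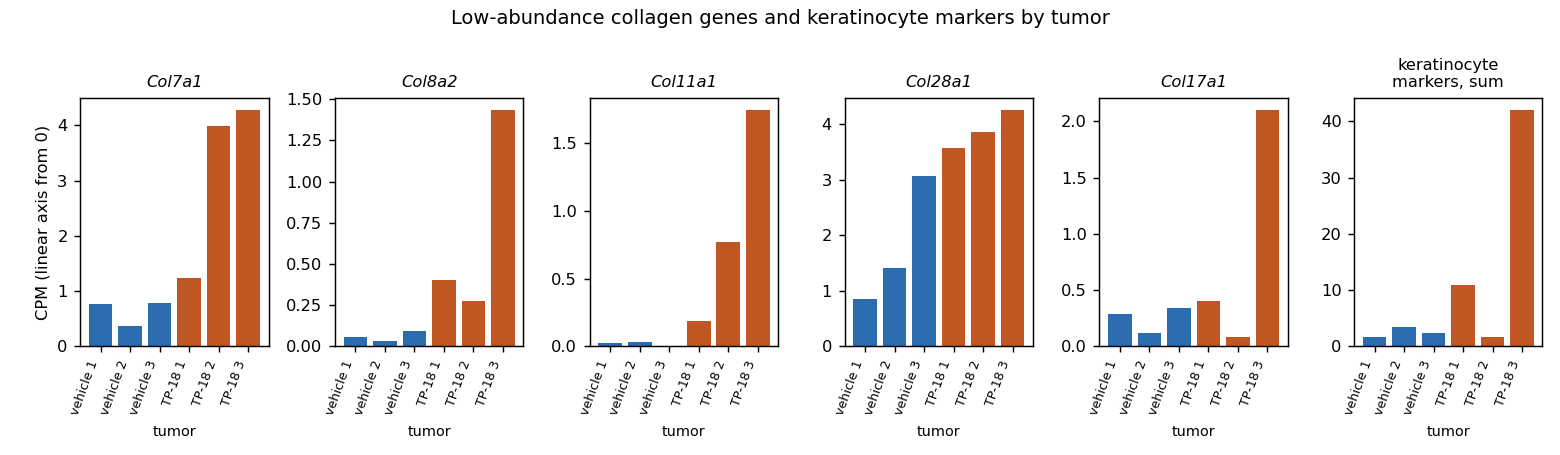
CPM of 5 low-abundance collagen genes and summed CPM of 8 keratinocyte markers in each tumor, on linear axes from 0 that differ between panels. Blue bars are vehicle and orange bars TP-18 tumors. Col7a1, Col8a2, Col11a1 and Col28a1 are higher in the 3 TP-18 tumors than in the 3 vehicle tumors, Col28a1 by a small margin, and Col17a1 and the keratinocyte markers peak in TP-18 3.

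FACIT collagens, which sit on the surface of fibrils, had 8 genes, of which 4 were tested and 0 passed (median log2 change -0.01). Col12a1, found in dense connective tissue, measured 25.1, 73.6 and 176 CPM in vehicle and 52.0, 163 and 190.2 CPM in TP-18 tumors, low in the same tumors as Col1a1. Col14a1 measured 9.53, 8.94 and 30.3 CPM against 9.62, 12.8 and 20.8 CPM. Col16a1, in contrast, hardly varied, at 145, 143 and 165 CPM against 149, 139 and 145 CPM. Its 95% interval ran from -0.25 to 0.13 (log2), and its within-group SD of 0.09 was exceeded by most tested genes, being at percentile 17.3. Col20a1 ran from 3.79 to 5.09 CPM in vehicle and from 4.27 to 4.95 CPM in TP-18 tumors.

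Transmembrane collagens had 4 genes, of which 3 were tested and 0 passed (median log2 change 1.78, all 3 positive). One of the 3, Col17a1, is given above with the keratinocyte markers. Col23a1 measured 1.22, 2.17 and 0.281 CPM in vehicle and 3.09, 1.75 and 7.82 CPM in TP-18 tumors (log2 change 1.78 ± 0.81 SE, adjusted p = 0.197 by edgeR and 0.036 by DESeq2). Col13a1, a collagen of cell contacts, measured 0.342, 0.827 and 0.156 CPM against 0.242, 2.11 and 0.615 CPM. Both were lowest in vehicle 3, with overlapping groups. Col28a1, a collagen placed outside these classes and known from peripheral nerve, measured 0.854, 1.41 and 3.06 CPM in vehicle and 3.58, 3.86 and 4.26 CPM in TP-18 tumors. Its groups did not overlap, but vehicle 3 lay close to the TP-18 tumors, and the log2 change of 1.14 ± 0.44 (SE) missed the threshold (adjusted p = 0.125 by edgeR). It was 1.80 without vehicle 3 (adjusted p = 0.0186), and DESeq2 gave an adjusted p of 0.0475.

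Markers of Schwann cells, the glia of peripheral nerve, summed over 6 genes to 22.4 to 25.6 CPM in vehicle and 30.4 to 33.2 CPM in TP-18 tumors. Their defining factor Sox10 was at or under 0.231 CPM in all 6 tumors. Mbp, a myelin protein also made outside nerve, rose by 1.18 ± 0.25 (SE, adjusted p = 0.0233 by edgeR). The part of nerve in the Col28a1 values was not tested.

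The 13 collagen genes that were not tested had few reads. Of these, 8 had at most 10 reads over all 6 libraries, namely Col2a1, Col4a3, Col4a4, Col9a2, Col19a1, Col22a1, Col25a1 and Col26a1. Col11a1, a cartilage fibril chain that activated fibroblasts can also make, had 1, 1 and 0 reads in vehicle and 7, 28 and 68 reads in TP-18 tumors. The read ratio was 50.3 (95% exact interval from 13.6 to 421, counting error only). With no filter on low counts, edgeR's fit gave Col11a1 an adjusted p of 0.00532 and Col8a2 one of 0.0124, and DESeq2 gave 0.000777 and 0.00633. Limma on log2(FPKM + 1) with no filter called neither (adjusted p = 0.268 and 0.296). Leaving out 1 library let them into edgeR's test only through the TP-18 libraries where they are high, so these p-values are no separate support for a rise. Col11a1 was at 0.0483, 0.0901 and 0.0537 without vehicle 1, 2 and 3 and at 0.0163 without TP-18 1. Col8a2 was at 0.0689, 0.125 and 0.0617 with vehicle 1, 2 and 3 omitted and at 0.0423 with TP-18 2 omitted. In the fit with no filter 4 of 42 collagen genes were called, where 8.28% of all genes were, and in DESeq2 6 of the 32 with an adjusted p, where 18.0% were. Of the 13 genes, Col11a1 and Col8a2 had groups that did not overlap, where 9.95% of all genes not tested did so. Over all 42 genes the groups of 5 did not overlap, against 25.8% of the genes in the table. Col6a4, Col6a5 and Col9a3 had 31, 32 and 63 reads in all and overlapping groups.

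Genes that act on collagen were taken from 7 lists, in which 71 genes were tested, 4 were called higher and 4 lower, 11.3% against the 12.4% of all tested genes. Of 22 tested genes for modification, folding and export, Sec24d alone was called, a coat protein that carries procollagen out of the endoplasmic reticulum, at 178, 195 and 192 CPM in vehicle and 146, 152 and 151 CPM in TP-18 tumors (log2 change -0.33 ± 0.07 SE, adjusted p = 0.0257). Serpinh1, the collagen chaperone HSP47, measured 532, 472 and 631 CPM against 402, 467 and 422 CPM (adjusted p = 0.102). Ppib, a folding enzyme of procollagen, measured 246 to 270.3 CPM in vehicle and 221 to 229 CPM in TP-18 tumors (adjusted p = 0.114). P4hb, a subunit of the prolyl hydroxylase, measured 938, 1023 and 1503 CPM against 873, 930 and 849.6 CPM (adjusted p = 0.182). The list's median log2 change was -0.18, and 7 of the 22 changes were positive.

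Of 6 tested propeptide-processing genes 0 were called, and Pcolce, the enhancer of procollagen cleavage, was level at 393 to 430.2 CPM in vehicle and 404 to 496 CPM in TP-18 tumors. Bmp1, the protease that removes the C-terminal propeptide, measured 54.3 to 71.7 CPM against 61.3 to 71.0 CPM. Among 5 crosslinking enzymes Loxl3 rose, at 57.8, 45.9 and 38.0 CPM in vehicle and 79.2, 76.5 and 70.5 CPM in TP-18 tumors (0.67 ± 0.15 SE, adjusted p = 0.0263). Lox, lysyl oxidase, spread more than any tested collagen gene (within-group SD 1.95 on the log2 scale), with 9.56, 34.1 and 313 CPM against 16.5, 69.1 and 46.7 CPM, and was highest in vehicle 3. Of 8 tested proteoglycans that bind fibrils, Fmod, fibromodulin, rose from 0.0569, 0.0306 and 0.187 CPM to 0.565, 1.20 and 4.10 CPM (4.38 ± 0.96 SE, adjusted p = 0.0292). Fmod had 9 reads in the 3 vehicle libraries together and passed the low-count filter only through the TP-18 libraries, and limma-voom gave 0.0674. Bgn, biglycan, measured 98.7, 105 and 168 CPM against 103, 237 and 224 CPM (adjusted p = 0.347).

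Of 9 tested collagen receptors, 2 rose and 1 fell. Lair1, an inhibitory collagen receptor of leukocytes, went from 13.9, 7.87 and 8.06 CPM to 33.9, 33.3 and 31.6 CPM (1.72 ± 0.22 SE, adjusted p = 0.00573), beside the rise in leukocyte markers given above. Itga1, the collagen-binding integrin alpha 1, went from 5.01, 9.19 and 8.59 CPM to 15.7, 16.9 and 14.2 CPM (1.04 ± 0.23 SE, adjusted p = 0.0258). Ddr1, a receptor kinase for collagen, fell by 0.44 (log2), from 39.2, 39.4 and 42.3 CPM to 28.4, 28.6 and 32.3 CPM (adjusted p = 0.0214). Itgb1, the shared beta chain, was the most abundant receptor, at 1064, 1155 and 1167 CPM against 900.2, 908 and 933 CPM (adjusted p = 0.0507). Ddr2, a receptor kinase of stromal cells, ran from 279.8 to 304 CPM and from 294 to 307 CPM.

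Of 8 tested genes for collagen breakdown 0 were called. Mmp14, the membrane collagenase, measured 263, 261 and 227 CPM in vehicle and 209, 304 and 258 CPM in TP-18 tumors. Mmp13, a secreted collagenase, ran from 36.8 to 76.2 CPM and from 31.1 to 77.4 CPM. Mmp2, a gelatinase, measured 15.8, 34.0 and 85.4 CPM against 17.4, 53.1 and 60.4 CPM, low in the same tumors as Col1a1. Among 13 tested partners of type IV collagen in the basement membrane, Lamb1, a laminin chain, fell from 524, 563 and 431 CPM to 380, 368 and 391 CPM (log2 change -0.42 ± 0.11 SE, adjusted p = 0.0438), while Lamc1, the gamma 1 laminin chain, missed the threshold (adjusted p = 0.0825), as did Hspg2, the proteoglycan perlecan (0.333), and Nid1, nidogen (0.358). Of the 7 called genes named here only Lair1 passed in all 6 fits with 1 library left out. Without vehicle 2 the adjusted p-values of the others were 0.108 for Fmod, 0.104 for Loxl3, 0.151 for Lamb1, 0.0938 for Sec24d, 0.0716 for Ddr1 and 0.0529 for Itga1. Without TP-18 2 the same 6 genes also lost the call, with adjusted p-values from 0.0566 for Fmod to 0.118 for Lamb1. Of these 6, only Fmod kept it without TP-18 1 (0.0253) and only Ddr1 without TP-18 3 (0.0472). Fmod and Lamb1 lost it without vehicle 1, and Ddr1 and Sec24d without vehicle 3.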

How the data were processed

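Raw counts per gene, as deposited, were used for all tests; per the submitters' processing notes fastp, HISAT2, HTSeq and GRCm38 were used, with no versions or strand setting. FPKM values were made by the authors from the counts, a whole-number gene length and the library total, which was checked in 15884 genes, and serve to compare levels between genes. Differential expression was tested with edgeR 4.0.16 in R 4.3.3: filterByExpr (minimum count 10, minimum total 15), TMM scaling, group as the only term, robust quasi-likelihood F test, two-sided, Benjamini-Hochberg adjustment over 14189 genes, called under 0.05. CPM values are TMM-scaled, standard errors come from the F statistic, and 95% intervals use its degrees of freedom. The code was tested on simulated data. Alternatives were RLE and upper-quartile scaling, other filters, non-robust moderation, DESeq2 1.42.0, limma 3.58.1 (voom, and trend on log2 FPKM with pseudocounts of 1 and 0.1), a replicate block, other thresholds and leaving out each library.

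The members, 7 lists of collagen-acting genes and 11 marker lists were chosen with earlier results of these data known. Named by rule were called members, the 3 most abundant of each class, tested members whose groups do not overlap, and in each list up to 2 called genes and the 2 most abundant. Other genes, chain pairs and motifs were chosen after values were seen. For 1 gene of these lists the result is not reported here. Marker lists not described were pericytes and smooth muscle (36.9 to 65.8 CPM summed in vehicle, 40.2 to 101 in TP-18), adipocytes (24.8 to 42.2 and 55.1 to 82.1) and red blood cells (66.3 to 395 and 14.8 to 33.9). Coordinates and promoters are RefSeq's for GRCm38.p6, matched by Entrez ID or symbol. No label ties a sample to a mouse of its own, so p-values cover at most the spread between these samples, and intervals on reads cover counting error only.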

Additional observations from a re-analysis of the deposited data

How the results depend on the processing

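Over all genes, 1753 were called, with 2704 by DESeq2, 846 by limma on log2(FPKM + 1) with no filter, 3022 at an adjusted p under 0.10, 693 with a further 2-fold minimum, 778 with the replicate block, and 499 to 2239 with 1 library left out. The 1 collagen gene called became 4 with no filter on low counts, 6 by DESeq2, 2 at an adjusted p under 0.10, and 0 by limma-voom, by limma on log2(FPKM + 1) with or without a filter or with a pseudocount of 0.1, and with the replicate block; with 1 library left out it was 0 to 3. The 8 called collagen-acting genes became 16 by DESeq2, 13 at an adjusted p under 0.10, 3 by limma on log2(FPKM + 1) with no filter, 3 with a 2-fold minimum, and 1 to 11 with 1 library left out. The replicate block gave Col7a1 a log2 change of 2.18 (adjusted p = 0.0824); deviations of tumors with equal numbers correlated at 0.24, -0.08 and -0.04, so the numbers were not taken to pair the tumors; 1 of the 3 TP-18 tumors had its highest correlation with the equal-numbered vehicle tumor.

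Changes that turned direction all belonged to genes that were not called. With limma on FPKM, a change of unit, scaling, filter and test together, the median of all genes was 0.09 (pseudocount 1) or 0.13 (pseudocount 0.1), and 13.8% and 14.3% of calls were lower against 42.6% with edgeR; Col14a1 was at 0.063, 0.127 and 0.063 (no filter) and Col16a1 at 0.078, 0.081 and 0.078. Limma-voom gave Col14a1 0.021 and Col6a3 -0.087, and Col6a3 was at -0.008 with no filter on low counts and -0.089 with the replicate block. With 1 library left out, log2 changes ran from -0.29 to 1.51 for Col1a1, -1.17 to 0.67 for Col3a1, -0.10 to 0.37 for Col5a1, -0.38 to 1.40 for Col5a2, -1.45 to 0.017 for Col5a3, -0.53 to 1.73 for Col24a1, -0.26 to 0.45 for Col6a2, -0.45 to 0.35 for Col6a3, -0.53 to 0.65 for Col14a1, -0.10 to 0.015 for Col16a1, -0.043 to 0.16 for Col20a1, -0.039 to 1.96 for Col13a1 and -0.041 to 2.31 for Col17a1. The cause of these shifts was not tested. Of 487 values of single collagen genes under other settings, 436 kept direction and side of the threshold, 33 turned direction, 10 lost the call and 8 gained it.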
